A study of Mus musculus with 24 samples.

Results

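The pericentral genes of the Wnt-dependent zonation programme of the liver, 10 in number, were followed across mouse livers of 6 genotypes. They were taken by symbol, and the rows of the count table whose Ensembl identifiers map to Axin2, Rnf43, Lgr5, Tbx3, Glul, Oat, Rhbg, Slc1a2, Cyp2e1 and Cyp1a2 gave 10 members among 33019 genes. The study sequenced polyadenylated liver RNA in 24 libraries, 4 for each genotype, from C57BL/6J mice aged 2 months. The groups are labelled as triple knockouts of Atg5, TSC1 and Nrf2 (Nrf2 TKO), triple knockouts of Atg5, TSC1 and p62 (p62 TKO), double knockouts of Atg5 and TSC1 (DKO), single knockouts of TSC1 (TSC1 KO), single knockouts of Atg5 (Atg5 KO) and wild type (WT). All deletions are labelled as hepatic, and the DKO and both TKO groups share the loss of Atg5 and TSC1. Atg5 is needed to form autophagosomes, TSC1 restrains the growth kinase complex mTORC1, p62 is an autophagy receptor, and Nrf2 is a transcription factor of antioxidant genes. The labels give no Cre driver, deleted exons, sex, litter or batch. They are also silent on whether the 4 libraries of a genotype are 4 animals, and the p-values therefore describe variation among libraries.

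As background, blood crosses the liver lobule from the portal tract to the central vein, and hepatocytes along this path carry out different work. Endothelial cells of the central vein release Wnt ligands and R-spondin 3, which stabilise beta-catenin in the neighbouring hepatocytes and switch on the pericentral genes. These genes take up glutamate and ammonia to make glutamine, and oxidise drugs with cytochromes P450. A second layer of Wnt targets, among them Axin2, Rnf43, Znrf3 and Notum, feeds back on the pathway itself.

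Promoter sequences are shown for 5 members, the 3 whose window held a TCF/LEF word and, for contrast, the glutamine synthetase gene Glul and the feedback gene Axin2, whose windows held none. TCF/LEF proteins are the DNA-binding partners of beta-catenin. Each window runs from 250 bases before to 50 bases after the gene's start in RefSeq (GRCm38.p6) and is written 5′ to 3′ on the gene's strand. A RefSeq start need not be the start of the annotated gene span printed with each gene, and for Slc1a2 it lies well inside that span. Capitals mark matches on either strand to the word CTTTGAA, the word CTTTGAT, the word CTTTGTA or the word CTTTGTT, which do not overlap each other here. The windows are chr7:140763569-140763868, plus strand (Cyp2e1), chr9:57683606-57683905, minus strand (Cyp1a2), chr2:102706188-102706487, plus strand (Slc1a2), chr1:153899679-153899978, plus strand (Glul) and chr11:108920099-108920398, plus strand (Axin2).
Cyp2e1: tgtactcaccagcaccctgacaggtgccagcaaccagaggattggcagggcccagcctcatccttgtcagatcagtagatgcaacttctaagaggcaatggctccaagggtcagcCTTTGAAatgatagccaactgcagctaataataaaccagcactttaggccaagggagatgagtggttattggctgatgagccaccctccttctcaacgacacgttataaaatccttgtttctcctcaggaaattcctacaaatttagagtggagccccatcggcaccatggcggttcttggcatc
Cyp1a2: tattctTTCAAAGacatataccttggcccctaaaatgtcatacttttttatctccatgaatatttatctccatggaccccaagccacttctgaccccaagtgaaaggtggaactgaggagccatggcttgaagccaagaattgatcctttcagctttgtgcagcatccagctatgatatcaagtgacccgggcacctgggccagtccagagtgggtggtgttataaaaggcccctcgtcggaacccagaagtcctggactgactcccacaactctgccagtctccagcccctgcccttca
Slc1a2: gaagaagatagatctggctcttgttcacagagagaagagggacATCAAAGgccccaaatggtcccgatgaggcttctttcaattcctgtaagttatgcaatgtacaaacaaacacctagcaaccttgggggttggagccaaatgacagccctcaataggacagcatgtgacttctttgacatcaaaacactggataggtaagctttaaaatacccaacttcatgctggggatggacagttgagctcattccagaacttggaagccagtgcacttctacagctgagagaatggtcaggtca
Glul: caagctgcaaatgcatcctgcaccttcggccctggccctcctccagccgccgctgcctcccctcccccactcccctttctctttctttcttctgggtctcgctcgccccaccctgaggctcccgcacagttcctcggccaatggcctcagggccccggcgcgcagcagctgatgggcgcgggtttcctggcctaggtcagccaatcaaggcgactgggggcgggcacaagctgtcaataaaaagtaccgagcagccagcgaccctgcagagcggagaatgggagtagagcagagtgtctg
Axin2: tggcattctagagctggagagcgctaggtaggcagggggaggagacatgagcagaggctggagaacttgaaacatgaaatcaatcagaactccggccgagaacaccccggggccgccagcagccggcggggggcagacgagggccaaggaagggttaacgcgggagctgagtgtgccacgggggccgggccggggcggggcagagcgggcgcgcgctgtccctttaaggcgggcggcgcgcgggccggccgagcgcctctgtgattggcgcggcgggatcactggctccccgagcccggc
The table held 8 windows for 7 members (2 starts for Rnf43), and 3 of the 8 held 1 word each. Cyp2e1 had CTTTGAA on the plus strand with its first base at -135 from the start, Cyp1a2 had CTTTGAA on the minus strand at -244, and Slc1a2 had CTTTGAT on the minus strand at -207. Among all 32851 promoter windows of this length, 16.9% held such a word, and a match is a description of letters only. The core word of the aryl hydrocarbon receptor element, GCGTG, was in 1 Rnf43 window and in no other member window, against 32.4% of all windows. Lgr5, Rhbg and Tbx3 are named only.

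Total counts ran from 10494080 to 13057467 per library, and all 10 members passed the filter on low counts among 15851 genes tested. Levels are in CPM, counts scaled to a common library size after TMM normalisation, and changes are log2 fold changes ± SE. Except where DESeq2 is named, each adjusted p is from the quasi-likelihood test of edgeR, adjusted after Benjamini and Hochberg over all genes tested. The targeted genes only partly followed the labels. Nfe2l2, which encodes Nrf2, averaged 11.7 CPM in Nrf2 TKO against 113 CPM in DKO. Sqstm1, which encodes p62, had 249, 439, 363 and 774 CPM in p62 TKO against 729 to 1063 CPM in DKO, so that p62 TKO replicate 4 lay within the DKO range. Atg5 averaged 43 CPM in the libraries labelled Atg5 KO against 26.8 CPM in WT, and Tsc1 averaged 31 CPM in the libraries labelled TSC1 KO against 35.1 CPM in WT. Atg5 was also at 83.7 CPM in TSC1 KO, and at 23.4 CPM in DKO, where Tsc1 averaged 36.6 CPM. Atg5 averaged 38.1 CPM in p62 TKO and 41 CPM in Nrf2 TKO. Both were called higher than DKO (0.70, adjusted p = 7.9e-05 and 0.81, adjusted p = 7.7e-06). Tsc1 averaged 22.4 CPM in p62 TKO, called lower than in DKO (-0.71, adjusted p = 0.0042), and 30.1 CPM in Nrf2 TKO (-0.28, adjusted p = 0.213). Reads of exons that a deletion leaves in place are part of these counts, and groups are named as labelled throughout. Nrf2 TKO replicate 2 stood apart, with 14173 counts of Xist and 5 of the Y-linked Ddx3y, whereas each of the other 23 libraries had at most 48 of Xist and at least 807 of Ddx3y. Atg5 KO replicate 2 had 74576 CPM of Alb, against 23947 to 36335 CPM in the other 3 of its group. The numbers of members called are also given without each of these 3 libraries, and other results only in part.

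In the livers labelled DKO the pericentral genes were low together. Lgr5, Tbx3, Glul, Oat, Rhbg, Slc1a2, Cyp2e1, Cyp1a2 and Rnf43 fell against WT, and Axin2 did not pass the test. Thus 9 of 10 members were called lower, where 32.3% of all genes tested were, and 0 higher, where 37.1% of genes were. In 8 of 10 every DKO library lay below every WT library, as in 28.3% of genes. Their median log2 fold change was -4.00, also with Rhbg at its bound, against 0.08 over all genes tested. DKO had the lowest mean of the 6 genotypes in 9 members, and in 7 of these all DKO libraries lay below all libraries of the next genotype. In bulk liver RNA, fewer cells of a type and less RNA per cell cannot be told apart. Markers of other cell types and of hepatocytes at large moved with this result. All 20 hepatocyte markers outside the zonation lists fell, and their summed level was 21913 to 29998 CPM in DKO against 136632 to 144748 CPM in WT. All 15 cholangiocyte markers rose, and their summed level was 7221 to 10605 CPM in DKO against 139.9 to 186 CPM in WT, with 0 markers of either list at 0 in both groups. Of 14 stellate cell and fibroblast markers 9 rose and 3 fell, of 14 macrophage markers 8 rose and 5 fell, and of 12 lymphocyte markers 7 rose and 0 fell. The part of these markers in the fall of the members was not tested. The 20 most abundant genes took 13.3% to 13.7% of counts in DKO and 21% to 26.7% in WT, and scaling by total counts alone put the median of all genes at 1.07 in DKO against WT. Changes are stated relative to the TMM scale.

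**Figure D1:**
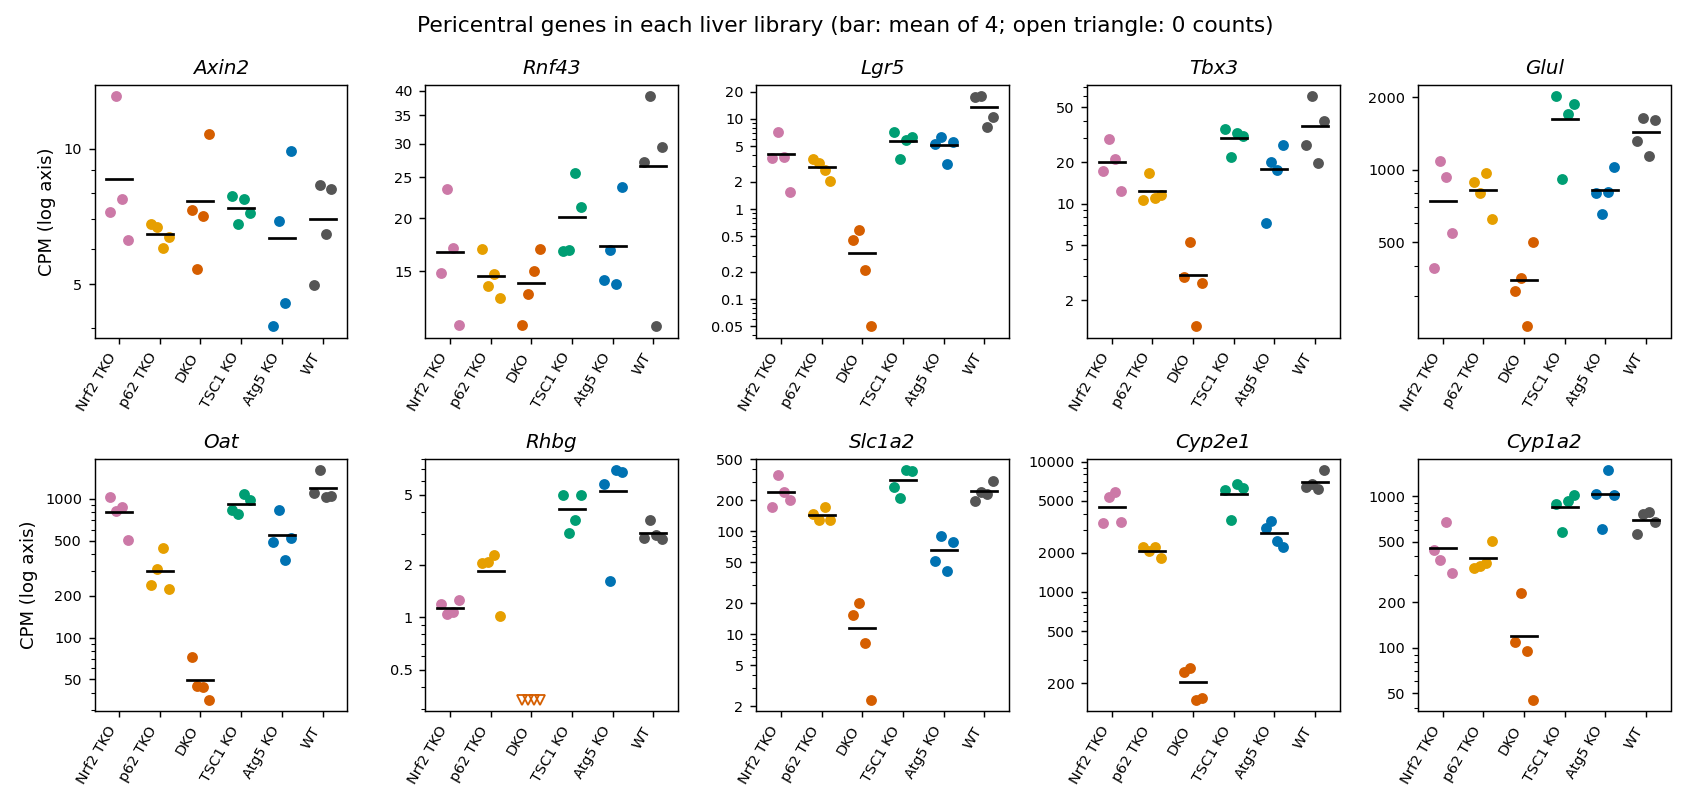
CPM of the 10 members on log axes, with 1 point per library in the order of replicates and a bar at the mean of 4 libraries for each genotype; open triangles mark 0 counts. DKO libraries lie lowest in Lgr5, Tbx3, Oat, Rhbg, Slc1a2, Cyp2e1 and Cyp1a2, and overlap other genotypes in Axin2, Rnf43 and Glul.

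Of the feedback genes, Rnf43 was called lower in DKO than in WT and Axin2 did not pass the test. Axin2 (ENSMUSG00000000142, chr11:108920349-108950783, plus strand), a scaffold of the complex that destroys beta-catenin, had 7.23, 13.1, 7.75 and 6.28 CPM in the 4 Nrf2 TKO libraries, 6.8, 6.71, 6.03 and 6.39 CPM in p62 TKO and 7.31, 5.42, 7.09 and 10.8 CPM in DKO. It had 7.87, 6.83, 7.73 and 7.19 CPM in TSC1 KO, 4.04, 6.92, 4.54 and 9.89 CPM in Atg5 KO and 4.99, 8.32, 6.46 and 8.16 CPM in WT. All 6 genotypes overlapped, and no comparison of Axin2 passed the test. Against WT its change in DKO was 0.14 ± 0.26, adjusted p = 0.661, with a 95% interval of -0.42 to 0.69. With total counts alone Axin2 was called higher in DKO than in WT (1.13, adjusted p = 0.0012), than in Atg5 KO (0.90, adjusted p = 0.0087) and than in TSC1 KO (0.91, adjusted p = 0.0064), and in p62 TKO it was then called lower than in DKO, at -0.71, adjusted p = 0.0406. An antisense gene, Gm11670, overlaps 3.8% of its exon length.

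Rnf43 (ENSMUSG00000034177, chr11:87662722-87735539, plus strand) encodes a ubiquitin ligase that removes Frizzled receptors from the cell surface. It stood at 14.9, 23.4, 17 and 11.2 CPM in Nrf2 TKO, 16.9, 13.9, 14.8 and 12.9 CPM in p62 TKO and 11.2, 13.2, 15 and 16.9 CPM in DKO. The other genotypes gave 16.7, 16.8, 25.6 and 21.3 CPM in TSC1 KO, 14.3, 16.8, 14 and 23.7 CPM in Atg5 KO and 27.1, 38.8, 11.1 and 29.5 CPM in WT. WT replicate 3 was as low as the lowest DKO library, while the other 3 WT libraries were above all of DKO. Rnf43 was called lower in DKO than in WT (-0.92 ± 0.27, adjusted p = 0.0047) and lower in p62 TKO than in WT (-0.86 ± 0.27, adjusted p = 0.0114). Neither call was made with total counts alone, where the change was 0.09, adjusted p = 0.768 in DKO against WT and -0.31, adjusted p = 0.365 in p62 TKO against WT. In Atg5 KO (-0.63 ± 0.27, adjusted p = 0.0837) and Nrf2 TKO (-0.67 ± 0.27, adjusted p = 0.0532) against WT it did not pass. Without WT replicate 3 it passed in Atg5 KO (-0.89, adjusted p = 0.0049), in Nrf2 TKO (-0.94, adjusted p = 0.0024) and in TSC1 KO (-0.67, adjusted p = 0.045). It also passed in Atg5 KO without Atg5 KO replicate 4 (-0.82, adjusted p = 0.043) and in Nrf2 TKO without Nrf2 TKO replicate 2 (-0.89, adjusted p = 0.023). On all libraries, Rnf43 in Nrf2 TKO against WT passed with DESeq2 (-0.69, adjusted p = 0.036) and with its size factors in edgeR (adjusted p = 0.047). With only the groups compared, it passed in DKO against TSC1 KO (-0.57, adjusted p = 0.011).

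Lgr5 (ENSMUSG00000020140, chr10:115450311-115587780, minus strand), the receptor for R-spondins that marks hepatocytes next to the central vein, was nearly absent in DKO. It had 3.66, 7.14, 3.78 and 1.55 CPM in Nrf2 TKO, 3.61, 3.22, 2.72 and 2.02 CPM in p62 TKO and 0.457, 0.59, 0.208 and 0.0501 CPM in DKO, the last from 8, 10, 4 and 1 counts. The level was 7.11, 3.6, 5.9 and 6.3 CPM in TSC1 KO, 5.26, 6.29, 3.19 and 5.59 CPM in Atg5 KO and 17.5, 17.8, 8.15 and 10.6 CPM in WT. DKO lay below every other genotype and WT above every other, without overlap. Lgr5 fell 41.3-fold in DKO against WT (-5.37 ± 0.49, adjusted p = 1.7e-09), and it also fell in Atg5 KO (-1.41 ± 0.38, adjusted p = 0.0073) and TSC1 KO (-1.24 ± 0.38, adjusted p = 0.0289) against WT. The TSC1 KO call did not hold with total counts alone (-1.10, adjusted p = 0.0677) or when a library was left out, with an adjusted p of 0.0859 without TSC1 KO 2, 0.0537 without TSC1 KO 3, 0.0971 without WT 1 and 0.0857 without WT 2. Against DKO, Lgr5 rose in p62 TKO (3.15 ± 0.49, adjusted p = 2.2e-05) and in Nrf2 TKO (3.64 ± 0.49, adjusted p = 1.4e-06), and in both it stayed below WT.

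Tbx3 (ENSMUSG00000018604, chr5:119670669-119684724, plus strand), a T-box transcription factor, was likewise lowest in DKO. It had 17.3, 29.4, 21.2 and 12.4 CPM in Nrf2 TKO, 10.8, 16.7, 11 and 11.5 CPM in p62 TKO and 2.97, 5.31, 1.3 and 2.66 CPM in DKO. There were 34.9, 22, 32.7 and 30.9 CPM in TSC1 KO, 7.32, 20.04, 17.6 and 26.9 CPM in Atg5 KO and 26.7, 60.1, 19.8 and 40.1 CPM in WT. DKO was below all other libraries, while WT overlapped TSC1 KO, Atg5 KO and Nrf2 TKO. Tbx3 fell 12-fold in DKO against WT (-3.59 ± 0.43, adjusted p = 2.1e-07). It rose against DKO in p62 TKO (2.03 ± 0.42, adjusted p = 0.00049) and Nrf2 TKO (2.72 ± 0.42, adjusted p = 1.3e-05). In Nrf2 TKO against WT it did not pass (-0.86 ± 0.38, adjusted p = 0.0756), but did with DESeq2 (adjusted p = 0.048) and without WT replicate 3 (-1.08, adjusted p = 0.033). In Atg5 KO against WT the call (-1.03 ± 0.38, adjusted p = 0.0459) was lost with total counts alone (-0.65, adjusted p = 0.18), with no filter on low counts, with only those groups fitted, and in 5 of 8 fits without a library, with an adjusted p of 0.141 without Atg5 KO 1, 0.0573 without Atg5 KO 2, 0.0894 without Atg5 KO 3, 0.196 without WT 2 and 0.104 without WT 4.

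The ammonia and glutamine genes differed in depth of change. Glul (ENSMUSG00000026473, chr1:153899944-153909723, plus strand) encodes glutamine synthetase, which joins ammonia to glutamate in the last hepatocytes before the central vein. It had 392, 1089.6, 933 and 544 CPM in Nrf2 TKO, 891, 797, 968 and 626 CPM in p62 TKO and 312, 355, 224 and 503 CPM in DKO. The levels were 2015, 913, 1709 and 1868 CPM in TSC1 KO, 802, 654, 810.4 and 1024 CPM in Atg5 KO and 1320.3, 1642, 1145 and 1602 CPM in WT. DKO lay below WT, both single knockouts and p62 TKO, and it overlapped Nrf2 TKO, whose replicate 1 was lower than DKO replicate 4. Glul fell 4.09-fold in DKO against WT (-2.03 ± 0.30, adjusted p = 2.2e-06). It rose in p62 TKO against DKO (1.23 ± 0.29, adjusted p = 0.0014) and in Nrf2 TKO against DKO (1.08 ± 0.29, adjusted p = 0.0028, or 0.84 and adjusted p = 0.017 without Nrf2 TKO replicate 2). With total counts alone the Nrf2 TKO call was not made (0.44, adjusted p = 0.193), and neither was the call of Glul in DKO against Atg5 KO (-1.24 ± 0.29, adjusted p = 0.00089, against -0.63, adjusted p = 0.0654 with total counts alone). Against WT, Glul stayed lower in Nrf2 TKO (-0.95 ± 0.29, adjusted p = 0.012) and p62 TKO (-0.80 ± 0.29, adjusted p = 0.0242), calls that total counts alone did not make (-0.59, adjusted p = 0.111 and -0.26, adjusted p = 0.461). The p62 TKO call had an adjusted p of 0.077 with no filter on low counts, and of 0.0763 without p62 TKO 4 and 0.0631 without WT 4.

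In Atg5 KO against WT, Glul was called lower with no overlap between the groups (-0.79 ± 0.29, adjusted p = 0.0401). That call did not hold with total counts alone (-0.40, adjusted p = 0.304) or with no filter on low counts (adjusted p = 0.12). Its adjusted p was 0.0846 without Atg5 KO 1, 0.085 without Atg5 KO 2, 0.0782 without Atg5 KO 3, 0.0628 without WT 1, 0.0900 without WT 2 and 0.106 without WT 4. In TSC1 KO, Glul did not pass (0.19 ± 0.29, adjusted p = 0.700), and 3 of the 4 libraries were above every WT library while replicate 2 was below all of them.

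Oat (ENSMUSG00000030934, chr7:132557478-132576398, minus strand), the mitochondrial ornithine aminotransferase that feeds glutamate synthesis, changed more. It had 1025, 812, 866 and 508 CPM in Nrf2 TKO, 239, 313, 440.5 and 223 CPM in p62 TKO and 72.2, 45.2, 44 and 35.6 CPM in DKO. It was at 836, 775, 1075 and 975 CPM in TSC1 KO, 490.4, 824, 365 and 519 CPM in Atg5 KO and 1094, 1607, 1036 and 1049 CPM in WT. Every DKO library was below every other library. Oat fell 24.3-fold in DKO against WT (-4.60 ± 0.31, adjusted p = 1.7e-11) and 2.18-fold in Atg5 KO against WT (-1.12 ± 0.27, adjusted p = 0.003). Against DKO it rose 6.17-fold in p62 TKO and 16.3-fold in Nrf2 TKO, and its p62 TKO level was below that of Nrf2 TKO (-1.40 ± 0.27, adjusted p = 0.0011) without overlap.

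Rhbg (ENSMUSG00000104445, chr3:88242874-88254709, minus strand), an ammonium transporter of the hepatocyte membrane, had 0 counts in all 4 DKO libraries. It had 1.19, 1.04, 1.07 and 1.26 CPM in Nrf2 TKO, 2.05, 2.06, 2.28 and 1.01 CPM in p62 TKO, 5.03, 3.04, 3.58 and 5.02 CPM in TSC1 KO, 5.79, 1.62, 6.93 and 6.73 CPM in Atg5 KO and 2.84, 3.58, 2.96 and 2.8 CPM in WT. These levels came from 11 to 87 counts per library. With the 0 counts of DKO replaced by 3 over the whole group, Rhbg was at least 74.7-fold lower in DKO than in WT (adjusted p = 1.8e-09), at least 45.5-fold higher in p62 TKO (adjusted p = 1.1e-07) and at least 27.7-fold higher in Nrf2 TKO (adjusted p = 2.7e-07) than in DKO. In Nrf2 TKO it stayed below WT in 4 of 4 libraries (-1.42 ± 0.38, adjusted p = 0.0055). In Atg5 KO it did not pass against WT (0.79 ± 0.34, adjusted p = 0.0843), with replicate 2 below and the other 3 libraries above all of WT. Without Atg5 KO replicate 2 it was called higher (1.08, adjusted p = 0.0033), as it was with total counts alone (1.198, adjusted p = 0.0143). The annotated readthrough gene Gm38392 shares 61.4% of the exon length of Rhbg on the same strand, and how reads of shared exons were counted is not stated.

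Slc1a2 (ENSMUSG00000005089, chr2:102658659-102790784, plus strand), a glutamate transporter, was the member that fell most in the livers labelled Atg5 KO. It had 171, 354, 242 and 204 CPM in Nrf2 TKO, 149, 129, 173 and 128 CPM in p62 TKO and 15.5, 20.3, 8.28 and 2.31 CPM in DKO. Values of 269, 212, 393 and 385 CPM were found in TSC1 KO, 52.1, 91.1, 41 and 79.1 CPM in Atg5 KO and 198, 244, 231 and 307 CPM in WT. Atg5 KO stood alone between DKO below and the other 4 genotypes above, without overlap. Slc1a2 fell 3.72-fold in Atg5 KO against WT (-1.90 ± 0.41, adjusted p = 0.0015) and 21.2-fold in DKO against WT (-4.41 ± 0.46, adjusted p = 2.8e-08). Against DKO it rose in p62 TKO (3.65 ± 0.44, adjusted p = 1.7e-06) and Nrf2 TKO (4.39 ± 0.45, adjusted p = 8.3e-08). Against WT its change was -0.01 ± 0.39 in Nrf2 TKO, with a 95% interval of -0.84 to 0.81, and -0.76 ± 0.39 in p62 TKO, neither passing the test. All p62 TKO libraries nonetheless lay below WT, and with only those groups fitted the p62 TKO value passed (-0.73, adjusted p = 0.0026).

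Of the cytochromes, only Cyp2e1 was called in Atg5 KO against WT. Cyp2e1 (ENSMUSG00000025479, chr7:140763739-140774987, plus strand), which oxidises ethanol and acetaminophen, had 3369, 5350.2, 5867 and 3459 CPM in Nrf2 TKO, 2212, 2076, 2215 and 1819 CPM in p62 TKO and 245, 262, 149 and 153 CPM in DKO. It had 6020.2, 3541, 6751 and 6244 CPM in TSC1 KO, 3111, 3499, 2466 and 2219.9 CPM in Atg5 KO and 6365, 6735, 6121 and 8609 CPM in WT. The highest DKO library was far below the lowest library of any other genotype. Cyp2e1 fell 34.4-fold in DKO (-5.10 ± 0.28, adjusted p = 1.9e-12) and 2.46-fold in Atg5 KO (-1.30 ± 0.24, adjusted p = 0.00032) against WT. It rose 10.3-fold in p62 TKO and 22.3-fold in Nrf2 TKO against DKO, and its p62 TKO level was below that of Nrf2 TKO (-1.12 ± 0.24, adjusted p = 0.0026). In Nrf2 TKO against WT the call (-0.63 ± 0.24, adjusted p = 0.0404) was lost with total counts alone (-0.29, adjusted p = 0.301), with only those groups fitted (adjusted p = 0.085), and in 5 fits without a library, with an adjusted p of 0.123 without Nrf2 TKO 1, 0.103 without Nrf2 TKO 4, 0.0603 without WT 1, 0.0582 without WT 2 and 0.147 without WT 4.

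Cyp1a2 (ENSMUSG00000032310, chr9:57676937-57683703, minus strand), which oxidises caffeine and aromatic amines and is also induced through the aryl hydrocarbon receptor, had 443, 377, 678 and 312 CPM in Nrf2 TKO, 334, 347, 364 and 508 CPM in p62 TKO and 108, 229.6, 95.5 and 45.3 CPM in DKO. It had 884, 581, 929 and 1009 CPM in TSC1 KO, 1033, 607, 1481 and 1017 CPM in Atg5 KO and 564, 766, 785 and 672 CPM in WT. DKO was below every other library, and 3 of 4 Atg5 KO libraries were above every WT library. Cyp1a2 fell 5.82-fold in DKO against WT (-2.54 ± 0.36, adjusted p = 1.9e-06), and rose in p62 TKO (1.70 ± 0.35, adjusted p = 0.00049) and Nrf2 TKO (1.92 ± 0.35, adjusted p = 8.8e-05) against DKO. In Atg5 KO against WT it was 0.57 ± 0.34, adjusted p = 0.223, and with total counts alone it was called higher (0.96, adjusted p = 0.0358). In p62 TKO against WT it was called lower (-0.84 ± 0.34, adjusted p = 0.0456), but not with total counts alone (-0.31, adjusted p = 0.449), with no filter on low counts (adjusted p = 0.13) or in 7 of 8 fits without a library, with an adjusted p of 0.105 without p62 TKO 1, 0.0781 without p62 TKO 2, 0.0891 without p62 TKO 3, 0.0501 without WT 1, 0.0732 without WT 2, 0.0769 without WT 3 and 0.0748 without WT 4.

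Levels per length of exon place the members on one scale of CPM per kilobase. In WT, Cyp2e1 had 3224 CPM per kilobase, Oat 507, Glul 429 and Cyp1a2 346, while the other 6 members ranged from 1.27 (Axin2) to 18.7 (Slc1a2). In DKO the same scale gave 105 CPM per kilobase for Glul, 93.7 for Cyp2e1, 59.5 for Cyp1a2 and 20.9 for Oat. The highest mean was in WT for 5 members, in TSC1 KO for Glul and Slc1a2, in Atg5 KO for Rhbg and Cyp1a2, and in Nrf2 TKO for Axin2. Of 50 pairs of genotypes that were neighbours in these orders, 38 had overlapping ranges.

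The single knockouts show how far each labelled loss alone went. In Atg5 KO against WT, Lgr5, Tbx3, Glul, Oat, Slc1a2 and Cyp2e1 were called lower, 6 of 10 members, where 11.3% of genes tested were called lower, and 0 members were called higher, where 18.6% of genes were. Their median was -0.91, against -0.0030 over all genes, and in 5 of 10 every Atg5 KO library lay below every WT library, as in 11.2% of genes. Without Atg5 KO replicate 2 the calls were 4 lower and 1 higher. With total counts alone they were 4 lower and 2 higher, the latter Rhbg and Cyp1a2. In TSC1 KO against WT, 1 of 10 members was called lower, namely Lgr5, where 7.6% of genes were, and 0 were called higher (8.79% of genes), with a median of -0.10. At an unadjusted p under 0.05, Lgr5 was likewise the only member in TSC1 KO. The Lgr5 call was lost in 4 of 8 fits without a library, and without WT replicate 3 Rnf43 was added to it. Cholangiocyte markers were also higher in the single knockouts than in WT, 12 of 15 in TSC1 KO and 13 of 15 in Atg5 KO, with sums of 681 to 1094 CPM in TSC1 KO, 583 to 1286 CPM in Atg5 KO and 139.9 to 186 CPM in WT. Of 20 hepatocyte markers, 1 rose and 4 fell in TSC1 KO (3 and 4 with total counts alone), and 0 rose and 11 fell in Atg5 KO (0 and 4 with total counts alone). Without Atg5 KO replicate 1, Atg5 KO replicate 4 or WT replicate 4, 6 fell in Atg5 KO, and without Atg5 KO replicate 3, 7 did. Without Atg5 KO replicate 2, 0 rose and 15 fell. The TSC1 KO calls were 3 in all without TSC1 KO replicate 1, 3 or 4 or WT replicate 1 or 4. In TSC1 KO, 10 of 14 macrophage markers fell. In Atg5 KO, 10 of 14 stellate cell, 9 of 14 macrophage and 9 of 12 lymphocyte markers and 11 of 12 cell cycle genes rose. Their part in the members' changes was not tested. DKO was also below each single knockout. Against Atg5 KO 8 of 10 members were called lower, where 27.3% of genes were, and 0 higher, where 29.2% were; with total counts alone 7 were lower and Axin2 was higher. Against TSC1 KO 8 of 10 were called lower, where 30% of genes were, and 0 higher, where 36.6% were, and with total counts alone Axin2 was added as higher.

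The difference between the DKO change and the sum of the single changes was tested as an interaction. In 8 of 10 members it was called below 0, where 19.3% of genes tested were, and in 0 above it, where 15.5% were. It was -2.72 ± 0.62 for Lgr5, -2.28 ± 0.56 for Tbx3, -1.43 ± 0.41 for Glul, -3.09 ± 0.38 for Oat, -2.87 ± 0.57 for Slc1a2, -3.50 ± 0.35 for Cyp2e1 and -3.40 ± 0.50 for Cyp1a2, with adjusted p-values from 1.7e-07 to 0.0086. Rhbg was called too, and its fitted value is no measure of size because DKO had 0 counts. Axin2 (0.19 ± 0.37, adjusted p = 0.736) and Rnf43 (0.12 ± 0.38, adjusted p = 0.846) did not pass. For Cyp1a2 and Rhbg neither single knockout was below WT in its mean. With total counts alone, Glul did not pass (-0.95, adjusted p = 0.0704).

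**Figure D2:**
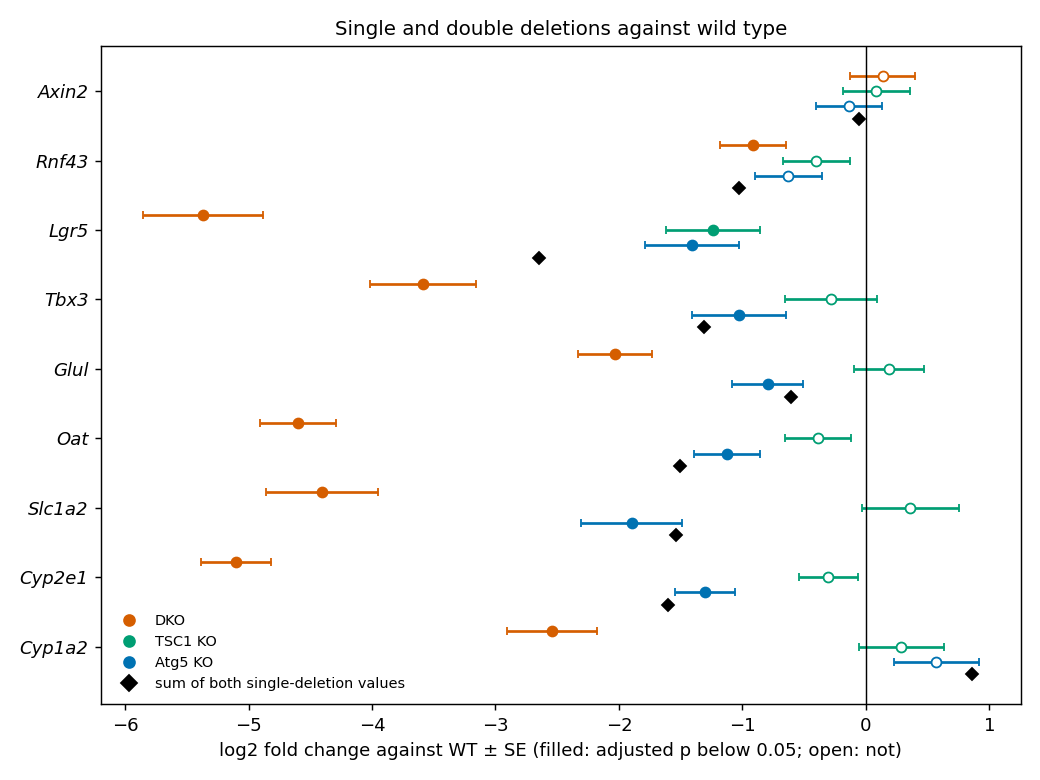
Log2 fold change ± SE against WT in DKO, TSC1 KO and Atg5 KO for 9 members, and diamonds at the sum of both single-knockout values; filled points passed the test. Rhbg is left out because DKO had 0 counts. DKO lies well below the diamond in all but Axin2 and Rnf43, with a difference of -3.50 for Cyp2e1 and -1.43 for Glul.

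Both triple knockouts carried higher pericentral levels than DKO, with which they share the labelled losses of Atg5 and TSC1. Atg5 itself was called higher in both than in DKO, and Tsc1 lower in p62 TKO than in DKO. The part of these differences in the members' values was not tested. In p62 TKO against DKO 8 of 10 members rose, where 22.3% of genes tested were called higher, and 0 fell (21.5% of genes), with a median of 2.33. In 8 of 10 every p62 TKO library lay above every DKO library, as in 21.9% of genes. In Nrf2 TKO against DKO 8 of 10 rose, where 26.7% of genes were called higher, and 0 fell (29.2% of genes), with a median of 3.18. In 7 of 10 every Nrf2 TKO library lay above every DKO library, as in 21.1% of genes. Axin2 and Rnf43 were the members not called in either comparison. Both comparisons share the DKO libraries with the comparison of DKO to WT, so their values are set side by side without a measure of likeness. The 8 calls against DKO were also made without p62 TKO replicate 4 and without Nrf2 TKO replicate 2. The 15 cholangiocyte markers ran the other way, with 0 higher and 13 lower in p62 TKO and 0 higher and 12 lower in Nrf2 TKO, and their summed level was 1764 to 3133 CPM in Nrf2 TKO and 2607 to 3864 CPM in p62 TKO, against 7221 to 10605 CPM in DKO. Of the 20 hepatocyte markers, 18 rose in p62 TKO and 19 in Nrf2 TKO, to 58285 to 81904 CPM in p62 TKO and 93692 to 126683 CPM in Nrf2 TKO in sum. Their part in the members' rise was not tested.

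**Figure D3:**
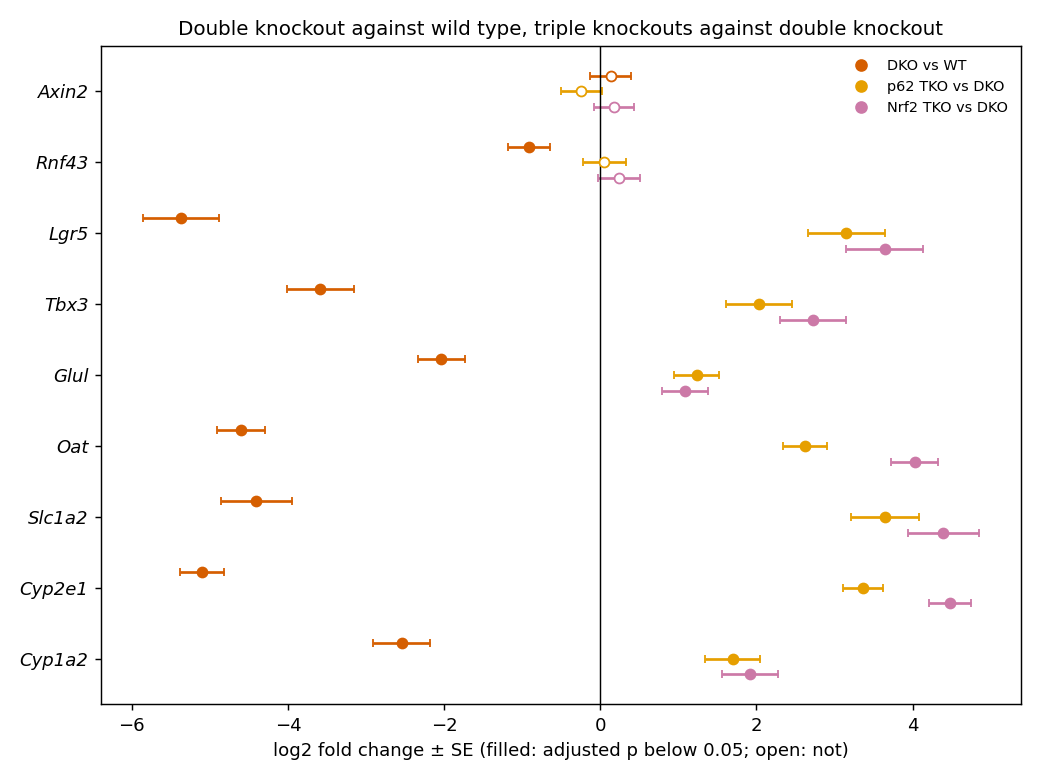
Log2 fold change ± SE in DKO against WT, and in p62 TKO and Nrf2 TKO against DKO, for 9 members; filled points passed the test. Rhbg is left out because DKO had 0 counts. For 7 of the 9, the DKO value is below 0 and both TKO values are above 0 and filled, while for Axin2 and Rnf43 the TKO values are open.

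Neither triple knockout was at the WT level throughout. Against WT, 7 of 10 members were lower in p62 TKO, namely Rnf43, Lgr5, Tbx3, Glul, Oat, Cyp2e1 and Cyp1a2, where 22.9% of genes tested were called lower, and 0 higher, where 28% were, with a median of -0.85. In 8 of 10 the p62 TKO libraries all lay below WT, as in 21.3% of genes. In Nrf2 TKO 4 of 10 were lower, namely Lgr5, Glul, Rhbg and Cyp2e1, where 17.1% of genes were, and 0 higher, where 22.4% were, with a median of -0.65. In 5 of 10 the Nrf2 TKO libraries all lay below WT, as in 12.7% of genes. Without Nrf2 TKO replicate 2, which was the highest of its group in 6 members, Rnf43 and Tbx3 (-1.11, adjusted p = 0.047) joined them, making 6. Without p62 TKO replicate 4, 6 were lower in p62 TKO, Glul being lost. With total counts alone the calls were 4 in p62 TKO and 2 in Nrf2 TKO. Against WT, 15 of 15 cholangiocyte markers rose and 16 of 20 hepatocyte markers fell in p62 TKO, and 14 rose and 9 fell in Nrf2 TKO. Of 14 macrophage markers 9 rose in p62 TKO, and in Nrf2 TKO 3 rose and 1 fell. The part of these markers in the members' values was not tested. Directly compared, p62 TKO and Nrf2 TKO differed in 2 members, both lower in p62 TKO, where 7.11% of genes were, and 0 higher, where 10.4% were. These were Oat and Cyp2e1. In the same comparison 11 of 14 macrophage markers and 9 of 12 cell cycle genes were higher in p62 TKO, and 4 of 20 hepatocyte markers were lower and 0 higher. Their part in the difference was not tested. For Slc1a2, whose means were 145 ± 21.2 CPM in p62 TKO and 243 ± 79.9 CPM in Nrf2 TKO (SD, n = 4 each), the change was -0.75 ± 0.39, adjusted p = 0.205, with a 95% interval of -1.57 to 0.08.

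Other pericentral genes were read from a list of 30. In DKO against WT 26 of them fell, where 32.3% of genes tested did, and 2 rose, where 37.1% did, with a median of -3.34. With total counts alone 22 fell and 4 rose. Cyp2c29, a drug-metabolising cytochrome, averaged 36.1 ± 13.6 CPM in DKO against 2009 ± 323 CPM in WT (-5.80 ± 0.39, adjusted p = 2.4e-11). Cpox, an enzyme of haem synthesis, had 17.9 ± 1.74 CPM in DKO and 163 ± 21.2 CPM in WT (-3.18 ± 0.20, adjusted p = 5.5e-12), and Lhpp, a phosphatase, changed by -3.69 ± 0.25, adjusted p = 2.6e-11. Cyp3a11 averaged 268 ± 150.5 CPM in DKO against 3966 ± 1538 CPM in WT (-3.89 ± 0.40, adjusted p = 1.3e-08). Cyp2a5 went the other way, with 1182 ± 655 CPM in DKO and 293 ± 36.3 CPM in WT (2.01 ± 0.58, adjusted p = 0.0042), and it averaged 42.8 CPM in Nrf2 TKO. The cytochrome families hold near-identical copies, between which counting can split reads. In the triple knockouts against DKO, 27 of the 30 rose and 0 fell in p62 TKO, and 22 rose and 4 fell in Nrf2 TKO, with medians of 2.20 and 2.37. Of all genes tested, 22.3% rose and 21.5% fell in p62 TKO, and 26.7% rose and 29.2% fell in Nrf2 TKO. In Atg5 KO against WT, 4 of the 30 rose, where 18.6% of genes tested did, and 11 fell, where 11.3% did. Without Atg5 KO replicate 2, 4 rose and 12 fell.

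Periportal hepatocyte genes fell in DKO as well. Of 23 tested, 18 were lower in DKO than in WT, where 32.3% of all genes were, and 0 higher, where 37.1% were. Their median was -2.46, although with total counts alone 14 were lower and 4 higher. Otc, an enzyme of the urea cycle, averaged 80.6 ± 27.5 CPM in DKO against 616 ± 102 CPM in WT (-2.93 ± 0.23, adjusted p = 1.3e-10). Uroc1, which degrades histidine, changed by -3.17 ± 0.23, adjusted p = 5.8e-11, and Cps1, which captures ammonia for the urea cycle, by -2.998 ± 0.35, adjusted p = 1.0e-07. The members' median in the same comparison was -4.00, and no test of the difference between the lists was made. In TSC1 KO against WT 6 periportal genes rose (3 without TSC1 KO replicate 2) and 0 fell, where 8.79% of all genes rose and 7.6% fell. Their median was 0.46, beside medians of -0.10 for the members and -0.10 for the other pericentral genes.

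On the TMM scale, each list of Wnt pathway genes held rises and falls in DKO against WT. Of all genes tested, 37.1% were called higher and 32.3% lower in that comparison. The balance within the lists shifted towards rises with total counts alone. Of 14 ligand, secretion and R-spondin genes tested, 8 rose and 4 fell in DKO against WT (9 and 2 with total counts alone). Wnt2, a ligand of the hepatic endothelium, averaged 0.289 ± 0.0724 CPM in DKO and 1.87 ± 0.95 CPM in WT (-2.67 ± 0.47, adjusted p = 2.6e-05), and it rose against DKO in p62 TKO (2.02 ± 0.47, adjusted p = 0.0013) and Nrf2 TKO (2.02 ± 0.48, adjusted p = 0.00096). These levels came from 21 counts over the DKO libraries and 67 over the WT libraries. Wnt9b, another endothelial ligand, changed by -1.998 ± 0.68, adjusted p = 0.0116, a call lost with total counts alone (-1.05, adjusted p = 0.154) and without WT replicate 3 (adjusted p = 0.053). Rspo3, which encodes R-spondin 3, did not pass (-0.69 ± 0.35, adjusted p = 0.0789), and it did without WT replicate 4 (-0.83, adjusted p = 0.048) and with only those groups fitted (-0.71, adjusted p = 0.014). Wnt9b, Rspo3, Nkd1, Znrf3, Sp5 and Cyp1a1 were chosen after their values were seen. Wnt4 rose to 237 ± 19.3 CPM in DKO, against 2.95 ± 1.73 CPM in WT (6.34 ± 0.41, adjusted p = 2.4e-11). Wls, which carries Wnt proteins to the cell surface, rose to 81.6 ± 8.7 CPM in DKO, against 4.56 ± 1.28 CPM in WT (4.15 ± 0.31, adjusted p = 1.2e-10). Over the 17 endothelial markers, which include Wnt2, Wnt9b and Rspo3, 5 rose and 6 fell (9 and 3 with total counts alone), and their summed level was 215 to 244 CPM in DKO against 155 to 307 CPM in WT. The part of endothelial or ductal cells in these changes was not tested.

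Among receptors, 8 of 16 rose and 4 fell in DKO against WT, and with total counts alone 11 rose and 0 fell. Lgr4, the R-spondin receptor found beside Lgr5, averaged 36.6 ± 6.24 CPM in DKO and 85.5 ± 13.6 CPM in WT (-1.22 ± 0.13, adjusted p = 1.6e-08, but -0.22, adjusted p = 0.0786 with total counts alone). Of 22 core and destruction complex genes 12 rose and 4 fell, against 21 and 0 with total counts alone. Ctnnb1, which encodes beta-catenin, rose (0.76 ± 0.18, adjusted p = 0.00077), with 337 ± 48.7 CPM in DKO and 199.6 ± 30.3 CPM in WT.

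Of 14 general Wnt targets 7 rose and 2 fell in DKO against WT (12 and 2 with total counts alone), and of 15 inhibitors 9 rose and 2 fell (12 and 1 with total counts alone). Notum, a secreted enzyme that inactivates Wnt ligands and is itself pericentral in liver, averaged 3.24 ± 0.998 CPM in DKO against 28.8 ± 6.93 CPM in WT (-3.16 ± 0.27, adjusted p = 7.1e-10). It rose against DKO in p62 TKO (1.65 ± 0.27, adjusted p = 3.2e-05) and Nrf2 TKO (2.83 ± 0.27, adjusted p = 1.2e-08). Sp5, a transcription factor and beta-catenin target, had 0.171 ± 0.144 CPM in DKO and 2.22 ± 0.814 CPM in WT (-3.67 ± 0.61, adjusted p = 1.1e-05). Its DKO level rests on few reads, since 3 counts over the DKO libraries give 0.0408 CPM. Nkd1, a feedback inhibitor that acts on Dishevelled, rose in DKO (1.56 ± 0.34, adjusted p = 0.0003) and was lower in p62 TKO (-1.92 ± 0.34, adjusted p = 9.2e-05) and Nrf2 TKO (-1.63 ± 0.34, adjusted p = 0.00027) than in DKO. Znrf3, the partner of Rnf43, did not pass in DKO against WT (-0.25 ± 0.18, adjusted p = 0.218). It was called higher with total counts alone (0.75, adjusted p = 0.0017) and lower without DKO replicate 4 (-0.44, adjusted p = 0.030).

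**Figure D4:**
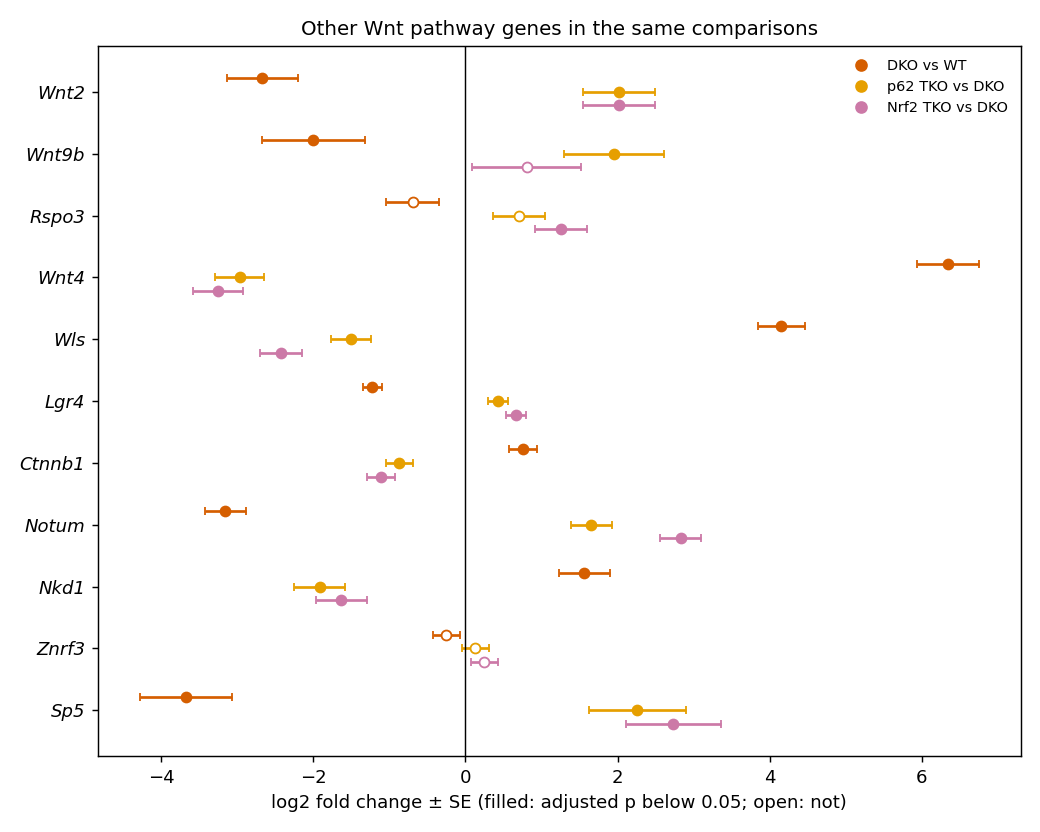
Log2 fold change ± SE of 11 Wnt pathway genes outside the 10 members, in DKO against WT and in p62 TKO and Nrf2 TKO against DKO; filled points passed the test. Notum, Sp5 and Wnt2 lie below 0 in DKO against WT and above 0 in both TKO comparisons, and Nkd1, Wnt4 and Wls lie on the opposite sides.

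Of 18 partners of the ammonia and glutamine members tested, 7 rose and 11 fell in DKO against WT, with a median of -1.80. In that comparison 37.1% of all genes tested were called higher and 32.3% lower. Slc38a3, a glutamine transporter, averaged 228 ± 22.4 CPM in DKO and 1595 ± 303 CPM in WT (-2.81 ± 0.24, adjusted p = 4.9e-10). Aldh4a1, which makes glutamate from proline and ornithine breakdown, changed by -2.04 ± 0.18, adjusted p = 1.2e-09. Beside Cyp1a2, 1 of 7 genes of the aryl hydrocarbon receptor pathway rose and 3 fell in DKO against WT, where the same shares of all genes apply. With total counts alone this turned to 4 and 1. Ahr, the receptor, changed by -1.07 ± 0.22, adjusted p = 0.00016, or -0.06, adjusted p = 0.79 with total counts alone. Cyp1a1, its classical target, had 0.632 ± 0.169 CPM in DKO and 1.24 ± 0.231 CPM in WT and did not pass (-0.98 ± 0.47, adjusted p = 0.0665), except without DKO replicate 2 (-1.17, adjusted p = 0.048).

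Likeness of pattern was measured as the root mean square difference between genes of the 6 genotype means of log2 CPM, after each gene's own mean was subtracted. The closest members were Oat and Cyp2e1 (0.24), followed by Axin2 and Rnf43 (0.32). Axin2 and Slc1a2 were the farthest apart (1.74). Against all 10289 genes with a mean of at least 5 CPM, the nearest to Glul were Cyb5b (0.13), Cebpa (0.13) and Nars2 (0.13). The nearest to Cyp2e1 were Adh7 (0.18), Adtrp (0.18) and Abcb11 (0.19). The nearest to Axin2, whose changes did not pass the test, were Ccdc174 (0.023), Gtf3c2 (0.034) and Rbbp6 (0.040). These are descriptions over 6 genotype means and carry no test.

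**Figure D5:**
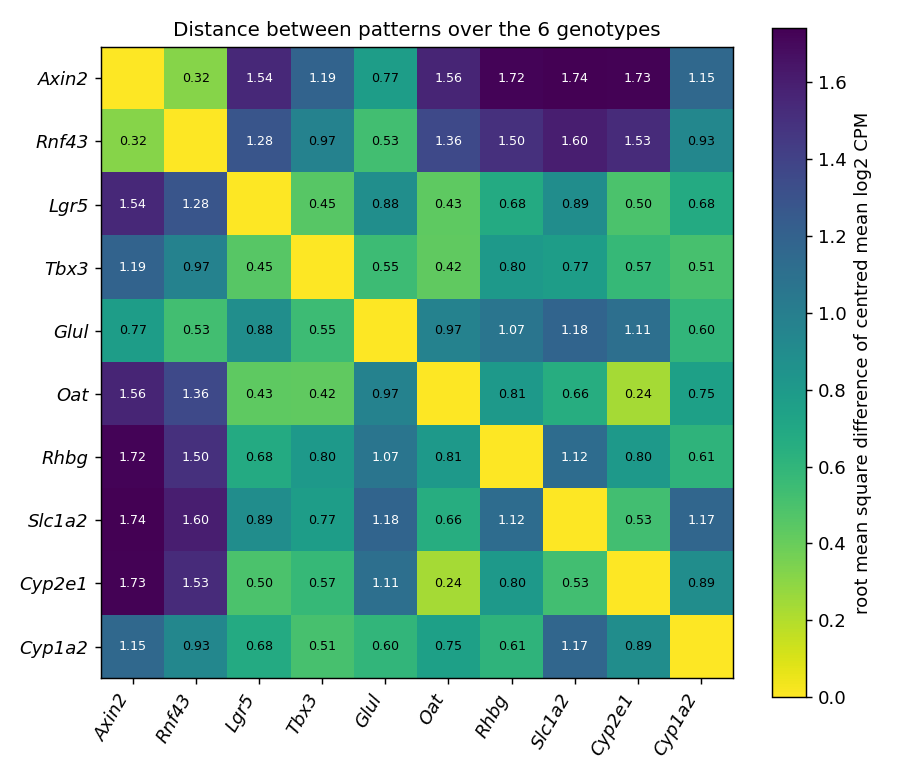
Distance between each pair of the 10 members, as the root mean square difference of centred mean log2 CPM over the 6 genotypes (yellow near, dark far). Axin2 and Rnf43 lie near each other (0.32) and far from Slc1a2, Cyp2e1, Oat, Rhbg and Lgr5, at 1.28 or more.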

How the data were processed

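Per the labels' protocols, livers were snap frozen, RNA was extracted with Trizol, and stranded polyA libraries were sequenced as single reads. The authors deposited 1 table of whole-number read counts for all genes, not normalised. Trimmomatic 0.36, HISAT2 2.1.0 and HTSeq are named in the submitters' processing notes, as is the build GRCm38. The annotation, and any use of strand in the counting, are not stated in the sources used here. Of 33019 identifiers, 32938 had a symbol in GENCODE M21.

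From the counts onward, R 4.3.3 with edgeR 4.0.16, limma 3.58.1 and DESeq2 1.42.0 was used, and Python 3.11.15 with pandas 2.3.3 and matplotlib 3.10.9. After filterByExpr, 15851 genes remained. Libraries were scaled by TMM, and all 24 entered 1 robust quasi-likelihood fit with a mean for each genotype, which left 18 residual degrees of freedom. A call is an adjusted p (Benjamini-Hochberg) under 0.05. The test was tested on simulated data. In those data few genes changed, unlike in DKO against WT. Members, gene lists and tests were chosen with earlier results of these data known. Named genes are the members and, from each list described, up to 3 with the smallest adjusted p in DKO against WT and up to 2 with the highest mean level; exceptions are stated. A fold against a group at 0 uses a floor of 3 counts over the group, which covers counting error only. No pair of replicates agreed within sampling noise (mean chi-square per gene at least 9.65). As alternatives, the fit was repeated without each library in turn, with the replicate number as a block, with only the groups compared, without the filter, with total counts alone, with the size factors of DESeq2, and with DESeq2 itself. The values of 1 gene are not reported here.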

Additional observations from a re-analysis of the deposited data

Results flagged for a closer look

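In 3 of 60 groups of 4 libraries, the highest library lay far from the other 3 relative to the group's range, where chance gives about 1 in 20 groups. Tbx3 was 16.7 CPM in p62 TKO replicate 2, against 10.8 to 11.5 CPM in the other p62 TKO libraries. Oat was 1607 CPM in WT replicate 2, against 1036 to 1094 CPM in the other WT libraries. Cyp1a2 was 508 CPM in p62 TKO replicate 4, against 334 to 364 CPM in the other p62 TKO libraries.

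For 8 members the change with Atg5 loss differed by the interaction test between livers labelled with and without TSC1 loss, and the difference was below 0 in each. It was -2.72 for Lgr5, -2.28 for Tbx3, -1.43 for Glul, -3.09 for Oat, -2.87 for Slc1a2, -3.50 for Cyp2e1 and -3.40 for Cyp1a2 on the log2 scale. The fitted value for Rhbg, -9.47, depends on the prior count because DKO had 0 counts, and is no measure of size.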

How the results depend on the processing

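Over 11 comparisons of 10 members, the number of members called stayed within 1.5 times the reported one under every alternative that kept all libraries, except with total counts alone, which called 0 in TSC1 KO against WT, 4 in p62 TKO against WT and 2 in Nrf2 TKO against WT. This number adds calls of both directions. In Atg5 KO against WT, total counts alone gave 4 lower and 2 higher. In DKO against WT they gave 8 lower and 1 higher, and in p62 TKO against DKO 8 higher and 1 lower. Leaving out 1 library at a time gave 0 to 2 in TSC1 KO against WT, 4 to 7 in Atg5 KO against WT, 5 to 6 in p62 TKO against WT and 3 to 6 in Nrf2 TKO against WT, and did not change the number in the other 7 comparisons, which was 9 in DKO against WT, 8 against either single knockout, 8 in either triple knockout against DKO, 8 in the interaction and 2 between the triple knockouts.

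Little pairing by replicate number was seen. Of 60 pairs with the same number, 7 correlated over 0.1 in their deviations from group means (median -0.013). Of 24 libraries, 3 correlated best with their own number. Replicate 4 gave the highest values: Atg5 KO with WT 0.27, Nrf2 TKO with Atg5 KO 0.27, Nrf2 TKO with WT 0.20. The labels give no batch, and weak correlation cannot show that no pairing exists. With the replicate number as a block, 5 members were called in Atg5 KO against WT, 6 in p62 TKO against WT, and in the other 9 comparisons the number was as reported. The calls lost were Glul (-0.80, adjusted p = 0.055) in Atg5 KO against WT and Cyp1a2 (-0.82, adjusted p = 0.063) in p62 TKO against WT.

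With total counts alone the sign turned for Axin2 in Atg5 KO against WT (0.24), in Nrf2 TKO against DKO (-0.47) and in p62 TKO against WT (0.43), for Rnf43 in DKO against Atg5 KO (0.33), TSC1 KO (0.35) and WT (0.095) and in Nrf2 TKO (-0.40) and p62 TKO (-0.41) against DKO, for Cyp1a2 between p62 TKO and Nrf2 TKO (0.0078), for Slc1a2 in Nrf2 TKO against WT (0.35), and for Rspo3 (0.29) and Znrf3 (0.75) in DKO against WT. That scaling differs from TMM by the shift it gives the median of all genes. With only the groups compared it turned for Axin2 in DKO against TSC1 KO (-0.0048) and Slc1a2 in Nrf2 TKO against WT (0.0089), and with no filter for Rnf43 in p62 TKO against DKO (-0.014); the cause was not tested. Of these, the reported values of Rnf43 in DKO against WT alone had passed the test.

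Without 1 library at a time, values that changed sign ranged for Axin2 from -0.056 to 0.48 in the interaction, -0.44 to 0.029 in Atg5 KO against WT, -0.0024 to 0.22 in TSC1 KO against WT, -0.072 to 0.27 in DKO against WT, -0.18 to 0.17 in DKO against TSC1 KO, -0.11 to 0.38 in Nrf2 TKO against DKO and -0.22 to 0.0030 in p62 TKO against WT. For Rnf43 they ranged from -0.18 to 0.32 in the interaction, -0.046 to 0.15 in p62 TKO against DKO and -0.36 to 0.025 between p62 TKO and Nrf2 TKO. Between the same groups Cyp1a2 ranged from -0.39 to 0.016 and Glul from -0.090 to 0.40. Slc1a2 ranged from -0.25 to 0.15 in Nrf2 TKO against WT, and Tbx3 from -0.50 to 0.051 in TSC1 KO against WT. None of these reported values had passed the test. Among all 10 members, 29 results without 1 library lost a call and 8 gained one. Counts limit Rhbg, Lgr5 in DKO, Wnt2 and Sp5 in DKO, which rest on few reads.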
